A study of Mus musculus with 8 samples.

Results

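The tubulin isoforms are described here through 10 genes, 4 of α-tubulin (*Tuba1a*, *Tuba1b*, *Tuba4a* and *Tuba8*) and 6 of β-tubulin (*Tubb2a*, *Tubb2b*, *Tubb3*, *Tubb4b*, *Tubb5* and *Tubb6*). They were taken by name from a table of raw counts of 46040 genes, and all 10 were found. The table holds RNA sequencing of the left ventricle (LV) of male C57BL/6 mice on day 14 of angiotensin II (angII) infusion (0.1 mg/kg/h). The mice were 5 to 7 months old at the start of the infusion, which raises blood pressure and causes LV hypertrophy. There were 4 libraries tagged wildtype, from littermate controls, and 4 tagged VEGFR1_TK -/-. The VEGFR-1 TK-/- mice lack the intracellular tyrosine kinase domain of VEGFR-1 in all tissues and keep the ligand-binding part. All mice received angII, and no untreated hearts were analysed here. The title of every sample names the opposite genotype from its tag, while the library name, which also heads its column of counts, names the same genotype as the tag. The groups below follow the tags, as control-tagged and TK-/- tagged (VEGFR-1 TK-/-), and every sign reverses if the titles are right.

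Tubulin is built as a dimer of an α and a β subunit, and dimers assemble end to end into microtubules. In cardiomyocytes, microtubules carry cargo, bear load during contraction and add stiffness, and a denser microtubule network is known from pressure-overloaded hearts. The isoforms differ mostly in the acidic tail at the carboxyl end. In α-tubulin the tail often ends in a tyrosine, which the vasohibins with their partner SVBP remove and the ligase TTL adds back. Detyrosinated microtubules bind the intermediate filament desmin at the sarcomere.

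The ends of the coding sequences are shown because they encode these tails, and because those of *Tubb2a* and *Tubb2b* show how far paralogs can be told apart by reads. Each line is the last 60 bases of the coding sequence on the gene's own strand (GENCODE M21 transcripts, GRCm38), with the last codon before the stop in capitals. The lines are, in order, at chr1:75215622-75215681 (minus), chr6:121226020-121226079 (plus), chr2:25222308-25222367 (minus), chr13:34074468-34074527 (minus) and chr13:34127471-34127530 (minus).
Tuba4a: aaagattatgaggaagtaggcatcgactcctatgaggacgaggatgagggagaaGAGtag
Tuba8: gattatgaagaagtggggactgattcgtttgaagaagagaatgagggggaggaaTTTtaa
Tubb4b: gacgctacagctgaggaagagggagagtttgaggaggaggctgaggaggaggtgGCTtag
Tubb2a: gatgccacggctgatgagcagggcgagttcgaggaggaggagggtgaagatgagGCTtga
Tubb2b: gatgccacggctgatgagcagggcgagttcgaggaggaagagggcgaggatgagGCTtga

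*Tuba4a* ends in GAG and *Tuba8* in TTT, codons of glutamate and phenylalanine. The α isoforms with the highest counts per kb in these libraries, *Tuba4a* and *Tuba8*, thus do not encode the terminal tyrosine. Over the whole coding sequence, 98.3% of aligned bases were identical between *Tuba1a* and *Tuba1b*. *Tubb2a* and *Tubb2b* differed at 3 of the 60 bases, with 96.5% identity over the coding sequence. The other pairs of α genes shared 78.8% to 85.1% of bases and the other pairs of β genes 80.2% to 86.0%. In stretches of 100 bases, the read length, 50.0% of those of *Tuba1a* and 69.1% of those of *Tuba1b* were also found in transcripts of genes elsewhere, *Tuba1c* first among them. The shares were 36.9% for *Tubb2a*, 27.7% for *Tubb2b* and 29.2% for *Tubb4b*, whose copies were pseudogenes, and 0 for the other 5 genes. How the authors counted reads with several alignments is not stated. The split of counts within *Tubb2a* and *Tubb2b*, and of *Tuba1a* and *Tuba1b* with *Tuba1c*, is therefore uncertain. Stretches that *Tuba1a* and *Tuba1b* share with each other were not counted apart, so that their split may be uncertain too. If such reads were left out, levels and shares of *Tuba1a*, *Tuba1b*, *Tubb2a*, *Tubb2b* and *Tubb4b* are too low against the other 5 genes. The order of abundance then rests on incomplete counts.

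Counts on genes lay between 11449137 and 16239670 per library, and replicates differed from each other by more than sampling noise. *Flt1*, the gene of VEGFR-1, was at 56.9 to 84.3 normalized CPM (read counts scaled to a common library size, TMM) in the control-tagged and at 144 to 169.6 in the TK-/- tagged libraries, higher by 1.19 on the log2 scale (FDR = 0.00808, edgeR's quasi-likelihood test). These counts cover all of *Flt1*, the deleted stretch not being separable, and do not settle which label is right. The library names refer to cardiomyocytes, while the tissue label is LV. The 5 cardiomyocyte markers summed to 54365 to 88191 normalized CPM, the 5 fibroblast markers to 528 to 1470 and the 5 endothelial markers to 987 to 1386, so that transcripts of other cell types were present. Of 5 atrial markers, *Myl7*, *Sln* and *Bmp10* averaged under 1 normalized CPM, and with *Myl4* and *Nppa* the sum was 787 to 1310.2 in the control-tagged and 503 to 1431 in the TK-/- tagged libraries. The labels do not say that the libraries come from separate mice, and if some do not, p-values measure technical spread in part or in whole.

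All 10 tubulin genes had a CPM of at least 1 in all 8 libraries, so that none passed the filter through a single group. Together they took 0.193% to 0.363% of all counts of a library and 97.7% to 98.2% of the counts of all α- and β-tubulin genes. *Tuba4a* (ENSMUSG00000026202, chromosome 1, 75214228 to 75219865, GRCm38), an α isoform typical of muscle, platelets and brain, was the most abundant per kb of exon, with a mean over the 8 libraries of 277 normalized CPM per kb. *Tubb4b* (ENSMUSG00000036752, chromosome 2, 25222160 to 25224702), a widely expressed β isoform, followed with 224, and *Tuba8* (ENSMUSG00000030137, chromosome 6, 121210696 to 121226854), an α isoform of heart and skeletal muscle, with 167 normalized CPM per kb. This order held within each of the 8 libraries, for reads as the authors counted them. The 3 genes together took 67.3% to 78.2% of the tubulin counts of a library, or 62.3% to 73.9% when counts were divided by exon length.

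The middle of the range was held by *Tuba1b* (ENSMUSG00000023004, chromosome 15, 98931425 to 98934565) with 83.6, *Tubb5* (ENSMUSG00000001525, chromosome 17, 35833921 to 35838306) with 69.1, *Tuba1a* (ENSMUSG00000072235, chromosome 15, 98949837 to 98953703) with 68.5 and *Tubb2a* (ENSMUSG00000058672, chromosome 13, 34074274 to 34078007) with 53.0 normalized CPM per kb. *Tuba1b* and *Tubb5* are general isoforms of most dividing and non-dividing cells, and *Tuba1a* is best known from developing neurons. *Tubb5* was above *Tuba1a* in 5 of 8 libraries, so that these neighbours did not differ beyond their spread. *Tubb6* (ENSMUSG00000001473, chromosome 18, 67390717 to 67402749), a β isoform outside the nervous system, was at 20.7, *Tubb2b* (ENSMUSG00000045136, chromosome 13, 34126748 to 34130466) at 4.51 and *Tubb3* (ENSMUSG00000062380, chromosome 8, 123411424 to 123422015), the neuronal β isoform, at 1.95 normalized CPM per kb. Every other pair of neighbours in this order stood in the same order in 8 of 8 libraries. With the length of the longest complete transcript in place of all exon bases, *Tuba1b* (89.97) and *Tubb5* (86.8) became the neighbours that did not differ, with *Tuba1b* higher in 5 of 8 libraries, and the order of the means was the same.

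**Figure D1:**
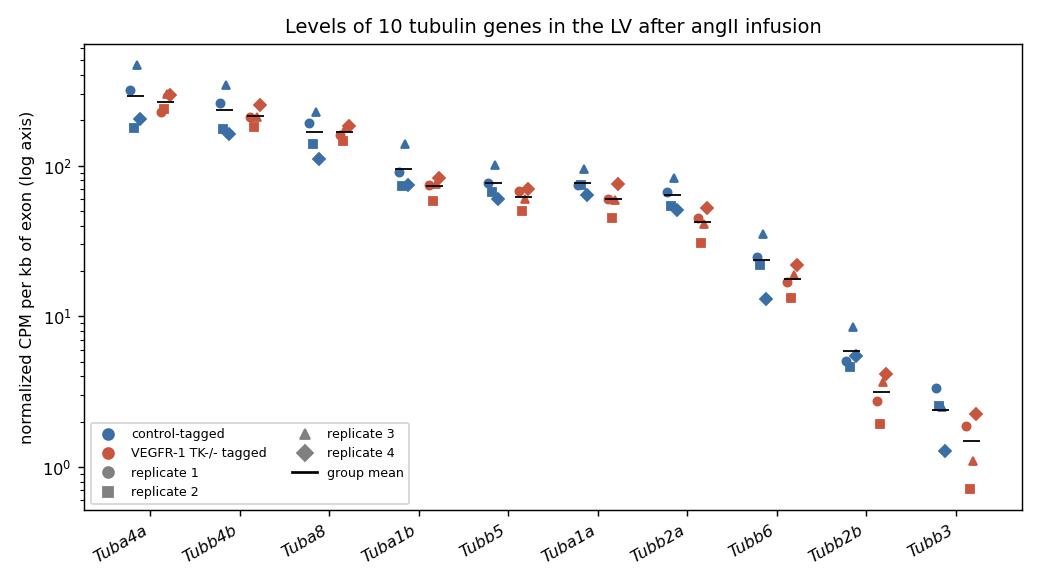
Normalized CPM per kb of exon (log axis) of the 10 tubulin genes, ordered by their mean. Each point is 1 library, the symbol gives the replicate number, the colour the group by genotype tag and the line the group mean. *Tuba4a*, *Tubb4b* and *Tuba8* are the 3 highest, and replicate 3 of the control-tagged group is the highest point of 9 of the 10 genes.

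Between the groups, 9 of 10 tubulin genes had a lower fitted level in the TK-/- tagged libraries, where 50.3% of all 13542 genes tested had a log2 fold change under 0. Their median log2 fold change was −0.37, against 0.00 over all genes tested. A gene was called when its FDR was under 0.1 and it differed at least 1.5-fold. By this rule edgeR's quasi-likelihood test called 0 of the 10, and 0.00738% of all genes. With an unadjusted p under 0.05, 3 of 10 were lower and 0 higher, where 5.64% of all genes were lower. These 3 were *Tubb2b*, *Tubb2a* and *Tuba1a*. The likelihood ratio test of the study's methods called 1 of 10, *Tubb2b*, and 0.391% of all genes. The levels of *Tubb2b* did not overlap between the groups, 1 of 10 genes, where the control-tagged libraries were all higher in 2.53% of all genes.

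*Tubb2b*, a β isoform of developing neurons, had the lowest fold change of the 10 genes. In the control-tagged replicates 1 to 4 it was at 11.5, 10.5, 19.4 and 12.6 normalized CPM, and in the TK-/- tagged replicates at 6.34, 4.44, 8.45 and 9.49. The lowest control-tagged value was thus above the highest of the other group. The means were 13.5 ± 4.04 and 7.18 ± 2.25 normalized CPM (SD, n = 4 per group; exact 2-sided permutation test, p = 0.0286, the smallest that 4 libraries against 4 allow). *Tubb2b* had a log2 fold change of −0.91 with an SE of 0.25, and edgeR's quasi-likelihood test gave an FDR of 0.442. The likelihood ratio test gave an FDR of 0.0889 and DESeq2 of 0.0983, which are calls, and over the 16 alternatives the FDR reached 0.941. These levels rest on 50 to 289 reads per library.

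*Tubb2a*, the paralog of *Tubb2b* and a β isoform of neurons and other cells, was at 107, 87.5, 134 and 82.3 normalized CPM in the control-tagged replicates 1 to 4. In the TK-/- tagged replicates it was at 72.0, 49.3, 66.1 and 84.8. Replicate 4 of the latter group was above replicate 4 of the control-tagged group, and the other TK-/- tagged libraries were below all control-tagged ones. The means were 103 ± 23.5 and 68.1 ± 14.8 normalized CPM (SD, n = 4 per group; exact permutation test, p = 0.0571). By edgeR's quasi-likelihood test the log2 fold change was −0.59 (SE 0.18) and the FDR 0.453, and none of the 16 alternatives called it. Counts of *Tubb2b* were 0.0880 to 0.153 times those of *Tubb2a* in a library, and this ratio overlapped between the groups.

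The paired α isoforms *Tuba1a* and *Tuba1b* also had lower means in the TK-/- tagged group. *Tuba1a* was at 134, 134, 173 and 115 normalized CPM in the control-tagged replicates 1 to 4 and at 108, 80.7, 107 and 137 in the TK-/- tagged ones. Replicate 4 of the TK-/- tagged group lay among the control-tagged libraries, and the log2 fold change was −0.36 (SE 0.16, FDR = 0.553). *Tuba1b* was at 170.1, 137, 262 and 139.9 normalized CPM and at 139, 109, 143 and 155 in the same order, and its log2 fold change was −0.38 (SE 0.20, FDR = 0.601). Leaving out its highest library, control-tagged replicate 3, gave −0.13. The ratio of *Tuba1a* to *Tuba1b* counts was 0.811 ± 0.131 and 0.788 ± 0.0639 (SD, n = 4 per group), a difference smaller than the spread between replicates.

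The 3 abundant isoforms showed no difference beyond the spread. *Tuba4a* was at 1174, 655, 1718 and 749.6 normalized CPM in the control-tagged replicates 1 to 4 and at 840.04, 879, 1101.5 and 1095 in the TK-/- tagged replicates. The control-tagged group held both the highest and the lowest library. Its log2 fold change was −0.13 (SE 0.26, FDR = 0.908) and turned to 0.19 without control-tagged replicate 3. *Tubb4b* was at 544, 367, 720.5 and 337 normalized CPM and at 439, 379, 436 and 524, and its log2 fold change was −0.15 (SE 0.22, FDR = 0.867), or 0.09 when the same library was left out. *Tuba8* was at 433, 316, 513 and 251 normalized CPM and at 364, 329, 408 and 416, with means of 379 ± 117 and 379 ± 40.3 (SD, n = 4 per group) and a log2 fold change of 0.00 (SE 0.19, FDR = 0.998). In all 3 genes the TK-/- tagged libraries lay within the range of the control-tagged ones.

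Of the remaining β isoforms, *Tubb5* was at 254, 224, 336 and 201 normalized CPM in the control-tagged replicates 1 to 4 and at 226, 167, 200.04 and 233 in the TK-/- tagged ones. Its log2 fold change was −0.30 (SE 0.16, FDR = 0.616), or −0.13 without control-tagged replicate 3, and the groups overlapped. *Tubb6* was at 59.9, 53.6, 85.2 and 31.8 normalized CPM and at 41.4, 32.4, 45.5 and 53.7, and its log2 fold change was −0.41 (SE 0.24, FDR = 0.640), or −0.17 without the same library. Its lowest library was replicate 4 of the control-tagged group. *Tubb3* was at 6.21, 4.72, 4.64 and 2.40 normalized CPM and at 3.49, 1.33, 2.05 and 4.22, from 15 to 83 reads per library. This log2 fold change of −0.69 (SE 0.35, FDR = 0.599) was the second lowest of the 10, and its groups overlapped.

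**Figure D2:**
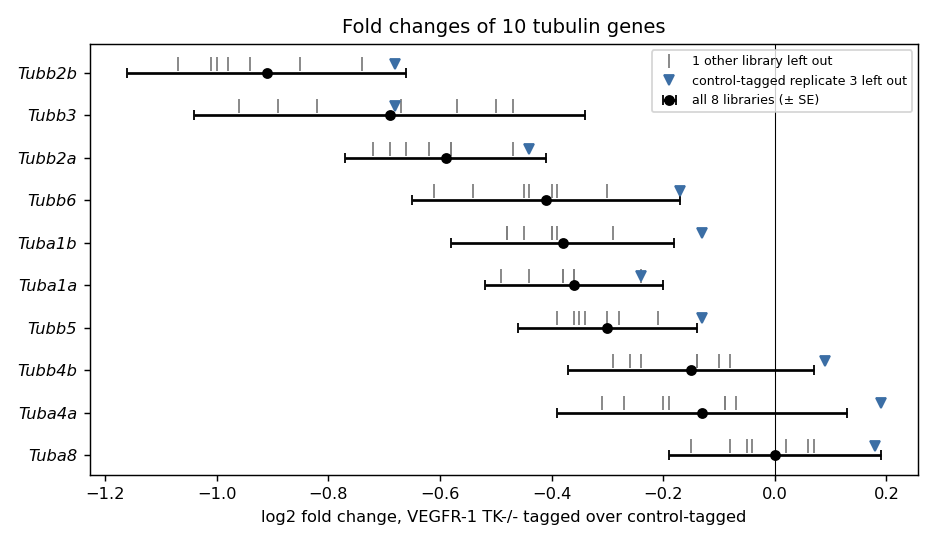
Log2 fold change of the 10 tubulin genes, TK-/- tagged over control-tagged. Circles with bars are the fit over all 8 libraries with its SE, grey marks leave out 1 other library and triangles leave out replicate 3 of the control-tagged group. Without that replicate, the values run from −0.68 in *Tubb2b* and *Tubb3* to 0.19 in *Tuba4a*, with *Tuba8* and *Tubb4b* also above 0.

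A single library was the highest for most isoforms. Replicate 3 of the control-tagged group was the highest of the 8 libraries in 9 of 10 genes, *Tubb3* being the exception. Replicate 2 of the TK-/- tagged group was the lowest in 6 of 10. The shares of all genes with their highest or lowest value in these libraries were not taken, so that this may not be particular to tubulins. The summed tubulin level was 2894, 1989, 3966 and 1923 normalized CPM in the control-tagged replicates 1 to 4 and 2240.03, 2030.5, 2517 and 2711 in the TK-/- tagged ones. The control-tagged group thus spanned the whole range of the other group, and the ratio of the means was −0.18 on the log2 scale. Without control-tagged replicate 3 this ratio was 0.07, with the sign turned. That library also had the highest total count and the lowest TMM scaling factor, 0.917, and 86079.6 normalized CPM of summed cardiomyocyte markers, second to replicate 3 of the TK-/- tagged group with 88191. The part of these in the tubulin levels was not tested. Without that library, 7 of 10 genes were lower in the TK-/- tagged group. *Tubb2b* (−0.68, unadjusted p = 0.0109, FDR = 0.573) and *Tubb2a* (−0.44, unadjusted p = 0.0208, FDR = 0.573) were the 2 with an unadjusted p under 0.05 by edgeR's quasi-likelihood test. The shares of all genes that were lower or under this p in that fit were not taken.

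Shares within the tubulin counts of a library do not depend on library size or scaling, and a level common to all isoforms cancels in them. They sum to 100%, so that a smaller share of some isoforms is a larger share of others. *Tuba4a* took 39.0% ± 4.39 of the tubulin counts in the control-tagged and 41.2% ± 2.90 in the TK-/- tagged libraries (SD, n = 4 per group), *Tubb4b* 18.2% ± 0.541 and 18.7% ± 1.02, and *Tuba8* 14.2% ± 1.45 and 15.996% ± 0.443. *Tubb5* followed with 9.73% ± 1.324 and 8.71% ± 0.958, *Tuba1b* with 6.66% ± 0.588 and 5.74% ± 0.355, and *Tuba1a* with 5.42% ± 1.12 and 4.53% ± 0.495. The smallest shares were those of *Tubb2a*, *Tubb6* (2.14% ± 0.427 and 1.81% ± 0.160), *Tubb2b* and *Tubb3* (0.173% ± 0.0614 and 0.115% ± 0.0480). α-Tubulin as a whole took 62.5% to 67.2% of the counts in the control-tagged and 64.8% to 69.9% in the TK-/- tagged libraries, and 58.7% to 61.7% and 60.2% to 64.8% per kb of exon. Both ranges overlapped.

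**Figure D3:**
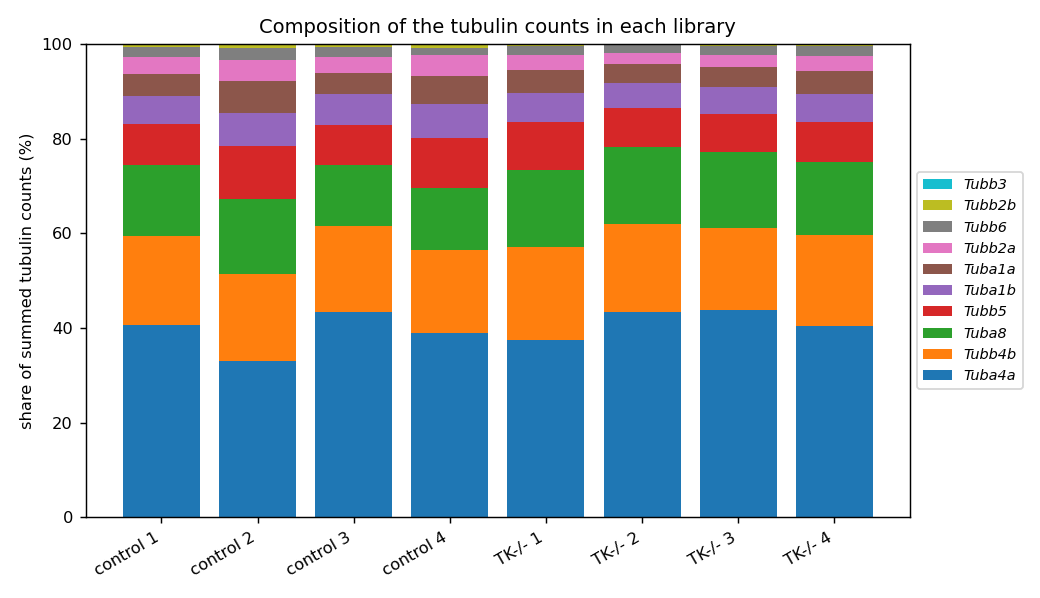
Stacked bars of the share (%) of each isoform in the summed counts of the 10 tubulin genes, 1 bar per library, with control-tagged replicates 1 to 4 on the left and TK-/- tagged replicates 1 to 4 on the right. *Tuba4a*, *Tubb4b* and *Tuba8* fill 67.3% to 78.2% of each bar, and the share of *Tuba4a* is lowest in control-tagged replicate 2.

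The shares of *Tubb2a* and *Tubb2b* were the 2 of 10 that did not overlap between the groups, and both were smaller in the TK-/- tagged libraries. Over all genes tested, the count divided by the summed tubulin counts was without overlap and lower in this group in 0.177%. The sum carries the variation common to the isoforms into every other gene, so that this percentage is low by construction and is no measure of how unusual 2 of 10 is. *Tubb2a* took 3.69%, 4.402%, 3.38% and 4.28% of the tubulin counts in the control-tagged replicates 1 to 4 and 3.21%, 2.43%, 2.63% and 3.13% in the TK-/- tagged ones. The means were 3.94% ± 0.482 and 2.85% ± 0.382 (SD, n = 4 per group), a difference of −1.09 percentage points (exact 2-sided permutation test, p = 0.0286, unadjusted, 10 shares compared). *Tubb2b* took 0.398%, 0.529%, 0.490% and 0.653% in the control-tagged and 0.283%, 0.219%, 0.336% and 0.350% in the TK-/- tagged libraries. Its difference was −0.221 percentage points (exact permutation test, p = 0.0286). Summed, the paralogs took 4.46% ± 0.555 and 3.15% ± 0.415 (SD, n = 4 per group) without overlap. The groups thus stayed apart however the counted reads were split between these paralogs. Reads left out or counted on other genes are not restored by the sum. Leaving out each library in turn, the difference ranged from −1.28 to −0.937 percentage points for *Tubb2a* and from −0.261 to −0.176 for *Tubb2b*.

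*Tuba8* had a larger share in the TK-/- tagged libraries by 1.77 percentage points, with an overlap of the groups through control-tagged replicate 2 (exact permutation test, p = 0.0571). *Tuba1b* had a smaller share by 0.925 points, with p = 0.0571 by the same exact permutation test. Against the β members alone, *Tubb4b* took 52.6% ± 3.26 in the control-tagged and 57.7% ± 1.70 in the TK-/- tagged libraries (SD, n = 4 per group) without overlap (exact permutation test, p = 0.0286). *Tubb2a* took 11.3% ± 0.893 and 8.74% ± 0.687 on this base. The count ratio of *Tubb2a* to *Tubb4b* was 0.196, 0.239, 0.186 and 0.244 in the control-tagged and 0.164, 0.130, 0.152 and 0.162 in the TK-/- tagged replicates, all control-tagged libraries being higher. Shares within the β members and this ratio were chosen after the values had been seen.

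**Figure D4:**
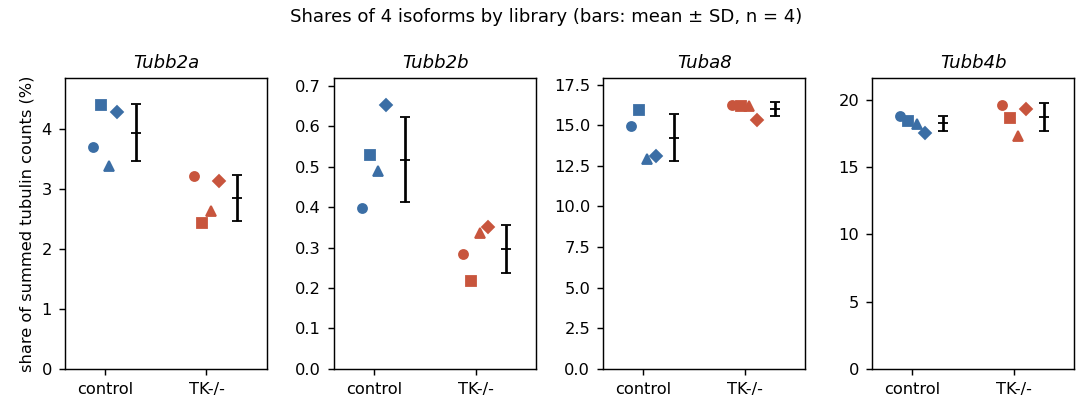
Shares (%) of *Tubb2a*, *Tubb2b*, *Tuba8* and *Tubb4b* in the summed tubulin counts, each axis starting at 0. Points are libraries, with the symbol for the replicate number, and bars give the mean ± SD of 4 libraries. The groups stand apart for *Tubb2a* and *Tubb2b* and overlap for *Tuba8* and *Tubb4b*.

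In percentage points, the share of *Tuba4a* moved most between libraries, from 32.9% in control-tagged replicate 2 to 43.8% in TK-/- tagged replicate 3. These were also the libraries with the lowest and the highest summed cardiomyocyte markers, 54365 and 88191 normalized CPM. The libraries between them did not all keep the same order in share and markers, and the relation was not tested. In bulk tissue, fewer cells of a type and less RNA per cell cannot be told apart. *Tuba4a* shares 1379 exon bases with *Stk16*, a kinase gene on the opposite strand, and whether the counting used strand is not stated. *Stk16* had 3.05% to 6.83% of the counts of *Tuba4a*, at 39.2 to 52.4 normalized CPM, and a log2 fold change of −0.06 (SE 0.11). With *Tuba4a* left out of the sum, a choice made after the values had been seen, *Tuba8* also stood apart, at 23.3% ± 1.57 and 27.3% ± 1.64 of the other 9 genes (SD, n = 4 per group; exact permutation test, p = 0.0286).

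The isoforms were also compared by their pattern over the 8 libraries, as the root mean square (RMS) difference of log2 normalized CPM after the mean of each gene was subtracted. *Tubb4b* ran closest to the tubulin sum, with an RMS difference of 0.0586, and *Tubb3* farthest, with 0.564. The sum includes each member itself, so that abundant isoforms are drawn towards it. Counting error also adds to the distance of scarce ones such as *Tubb3*. *Tubb4b* was the nearest member to both *Tuba4a* (0.155) and *Tuba8* (0.118), the 3 abundant isoforms. *Tubb5* was the nearest to *Tuba1a* (0.114) and *Tuba1b* (0.108), and *Tuba1a* the nearest to *Tubb2a* (0.142). *Tubb2a* was the nearest to *Tubb2b* (0.262) and *Tubb3* (0.382), and *Tuba1b* to *Tubb5* (0.108) and *Tubb6* (0.216). Nearest to the sum among all other genes tested were *Ppp2r3d* (0.103), *Sec13* (0.110), *Tssc4* (0.112), *Exosc7* (0.119) and *Rps18* (0.121), all highest in control-tagged replicate 3. The sum is itself highest in that library, so that a choice by likeness to it favours such genes.

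Markers of several other cell types also had lower means in the TK-/- tagged group. Summed endothelial markers were at 1083 to 1386 normalized CPM in the control-tagged and 987 to 1117 in the TK-/- tagged libraries, and smooth muscle and pericyte markers at 1046 to 1556 and 711 to 1159. Fibroblast markers were at 979.9 to 1469.8 and 528 to 1245, leukocyte markers at 369 to 488 and 249 to 381, and markers of dividing cells at 23.6 to 49.1 and 17.4 to 24.5. All 5 markers of each of these types were above 1 normalized CPM in all libraries, and all 5 sums overlapped between the groups. Cardiomyocyte markers were at 54365 to 86079.6 and 70726 to 88191. For neurons and Schwann cells, of interest for the neuronal isoforms, 4 markers summed to 26.9 to 33.0 and 24.4 to 35.8, an overlap with a log2 ratio of the means of −0.09. The part of cell composition in the tubulin values was not tested.

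Among the other tubulin genes, *Tubb4a*, a β isoform of brain, averaged 6.14 ± 1.96 and 3.46 ± 0.805 in normalized CPM (SD, n = 4 in each group) without overlap of the groups. By edgeR's quasi-likelihood test its log2 fold change was −0.83 (SE 0.25) and its FDR 0.453, and it had 30 to 134 reads per library. *Tuba1c*, with which *Tuba1a* and *Tuba1b* share sequence, averaged 49.3 ± 15.3 and 41.6 ± 2.61 in normalized CPM, a log2 fold change of −0.25 (SE 0.19, FDR = 0.724). *Tubg1*, the γ-tubulin that nucleates microtubules, was the most abundant per kb of the γ, δ and ε genes, at 39.9 ± 7.77 and 38.4 ± 3.30 normalized CPM.

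The other tubulins, genes that act on tubulin or microtubules and genes of the desmin cytoskeleton were taken from 9 lists of 104 genes, of which 94 were tested. None was called by edgeR's quasi-likelihood test, and their median log2 fold change was −0.03. With an unadjusted p under 0.05, 5 of 94 were lower and 2 of 94 higher in the TK-/- tagged libraries, where 5.64% of all genes were lower and 3.32% higher. Of 20 genes of tubulin folding, among them the chaperonin CCT, prefoldin and the tubulin cofactors, 1 was higher by this measure and 0 lower. This was *Pfdn6*, a prefoldin subunit, with a log2 fold change of 0.32 (SE 0.13, FDR = 0.522). The most abundant per kb of these was *Pfdn5*, at −0.11 (SE 0.19).

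Of 19 listed genes of enzymes that modify tubulin and their partners, 15 were tested. *Vash2*, *Svbp*, *Matcap1* and *Agbl4* were not, so that the genes of tyrosine removal were covered only in part. Of the 15 tested, 1 was higher and 1 lower at an unadjusted p under 0.05, and *Ttl* was neither of them. *Atat1*, which acetylates α-tubulin, was at 9.60 ± 1.51 normalized CPM in the control-tagged and 12.5 ± 1.08 in the TK-/- tagged libraries (SD, n = 4 per group; FDR = 0.495, edgeR's quasi-likelihood test). *Vash1*, the vasohibin that removes the terminal tyrosine of α-tubulin, was at 13.6 ± 3.28 and 9.49 ± 2.74 (FDR = 0.533). Both pairs of groups overlapped. The glutamylase subunit *Ttll1* was the most abundant per kb of this list, with a log2 fold change of 0.13 (SE 0.26). None of the 3 genes of tubulin mRNA autoregulation, by which free tubulin lowers its own mRNA, had an unadjusted p under 0.05, and *Cnot1*, the scaffold of the deadenylase complex, was at −0.04 (SE 0.12).

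Of 17 microtubule stabilizing and end binding proteins, 0 had an unadjusted p under 0.05, and *Map7d1*, the most abundant per kb, averaged 395 ± 24.1 and 413 ± 21.98 in normalized CPM (SD, n = 4 in each group). Of 9 tested destabilizing and severing proteins, *Fignl1* was lower by a fitted log2 value of −1.24 (SE 0.53, FDR = 0.532), at under 2 normalized CPM in every library. It passed the filter on low counts only through control-tagged replicates 2 and 3, so that the filter favoured this direction. *Katna1*, a subunit of katanin and the most abundant per kb, was at −0.02 (SE 0.10). Of 18 motor genes, *Dynll1*, a dynein light chain, was at 78.4 ± 6.17 and 61.7 ± 10.7 normalized CPM (FDR = 0.478, edgeR's quasi-likelihood test), while its paralog *Dynll2*, the most abundant, had a log2 fold change of −0.01 (SE 0.13).

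Of 6 genes of the desmin cytoskeleton and its crosslinkers, *Vim* was lower and did not overlap between the groups. *Vim*, the intermediate filament of fibroblasts, endothelium and other non-muscle cells, was at 490.1, 605, 658 and 552 normalized CPM in the control-tagged replicates 1 to 4 and at 453, 316, 359 and 486 in the TK-/- tagged ones. Its log2 fold change was −0.51 with an SE of 0.15, and edgeR's quasi-likelihood test gave an FDR of 0.453. *Des*, the desmin of muscle cells to which detyrosinated microtubules bind, averaged 4375 ± 237 and 4035 ± 318 in normalized CPM (SD, n = 4 in each group), and its log2 fold change was −0.12 (SE 0.13).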

How the data were processed

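LV RNA was sequenced into 8 libraries in paired ends of 100 bases. The authors trimmed reads with Trim Galore 0.4.4, aligned them to GRCm38 with STAR 2.5.4b and counted them on GENCODE M16 genes with featureCounts, and deposited 1 table of raw counts per gene. The labels describe ribosomal RNA depletion and the study poly-A selection. Libraries were grouped by genotype tag. GENCODE M21 gave symbols, positions, exon lengths and transcripts, and 849 of 46040 identifiers were not in it.

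The 13542 genes that reached a CPM of 1 in 2 or more libraries were tested, with TMM factors (0.917 to 1.12) and edgeR 4.0.16 (glmQLFit, glmQLFTest, no covariates) in R 4.3.3. FDR is Benjamini-Hochberg over all genes tested. The SE of a log2 fold change was derived from the test, as its absolute value divided by the square root of the quasi-likelihood F statistic. The study's likelihood ratio test and DESeq2 1.42.0 were alternatives, with other scalings, filters, a robust fit, each library left out and a replicate block. Log2 CPM used a prior count of 2. Exact permutation tests (scipy 1.17.1) covered single levels and shares, among them shares of summed paralogs, but not the sum of all members. At the lowest depth, a CPM of 1 is about 11 reads, so that *Tubb3* and *Tubb2b* carry the largest counting error.

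The members and gene lists were chosen with earlier results of these data known. Named genes were the members, *Flt1*, list genes with an FDR under 0.1, up to 4 per list with the lowest unadjusted p under 0.05, the most abundant per kb of each list, and the 5 nearest to the tubulin sum. *Stk16* was added for its overlap with *Tuba4a* after the values had been seen, as were shares without *Tuba4a*, within α or β, and with paralogs summed. Some sequences and 1 marker gene are not reported here.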

Additional observations from a re-analysis of the deposited data

Results flagged for a closer look

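The share of *Tuba8* in the tubulin counts of TK-/- tagged replicate 4 was 15.3%, against 16.2% to 16.3% in the other 3 libraries of its group, and the gap was 0.935 of the range of the group. This was the only value of 50 groups of 4 libraries examined whose gap passed Dixon's critical value, where chance alone gives about 1 in 20.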

How the results depend on the processing

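Of 160 comparisons of a member's log2 fold change with an alternative, 152 kept direction and call, 2 gained a call and 6 reversed. The 2 were *Tubb2b* by the likelihood ratio test and DESeq2, each with a value of −0.91 and 1 member called in place of 0. Without single libraries, *Tuba4a* ranged from −0.31 to 0.19, *Tubb4b* from −0.29 to 0.09 and *Tuba8* from −0.15 to 0.18. The 0.19 and 0.09 arose without control-tagged replicate 3. *Tuba8*, at 0.00, was at −0.08 and −0.15 without control-tagged replicates 2 and 4, and at −0.04 and −0.05 without TK-/- tagged replicates 3 and 4. The genes called numbered 53 by the likelihood ratio test, 32 by DESeq2 and 23 with no filter on low counts, in place of 1, and 1 to 3 without single libraries. Members with an unadjusted p under 0.05 numbered 6 with no filter, in place of 3, and 2 to 7 without single libraries, 7 without control-tagged replicate 4. The share of all genes under this p was taken only for the main fit. These counts therefore do not show whether the members differed from other genes. Isoform shares without overlap numbered 1 with the paralogs summed, in place of 2, since *Tubb2a* and *Tubb2b* are then 1 feature. They numbered 2 to 3 without single libraries, where 3 libraries against 4 stand apart more easily by chance. The share of all genes without overlap was not taken in these settings, so that the numbers do not show whether the isoforms differed from other genes. The summed tubulin level was at −0.31 to 0.07 without single libraries, in place of −0.18, with 0.07 without control-tagged replicate 3. Other settings left these counts within 1.5 times. Of 49 tested comparisons of a share, 47 kept direction and side of the threshold and 2 passed it (*Tuba8* without *Tuba4a*, *Tubb4b* within β). In 80 comparisons without a library, where no p could pass, 0 changed sign. The cause of these changes was not tested. Between libraries of the same replicate number, deviations from the group means had correlations of −0.029, 0.029 and −0.0555 for numbers 1, 2 and 4. Number 3 had a correlation of 0.343 and was the only 1 of 4 numbers that matched itself best. With the replicate block, 1 gene and 0 members were called, 9 of 10 members were lower and 4 had an unadjusted p under 0.05. The shares of all genes that were lower or under this p were not taken there. Depth limits *Tubb3* and *Tubb2b*, at 15 and 50 reads in their lowest library.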

Other observations

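Of the α- and β-tubulin genes outside the 10, *Tubb1*, the β isoform of platelets, had 1 to 11 reads per library and *Tuba3b*, of testis, 1 to 15. *Tuba3a* had 1 read in all libraries together and *Tubal3* 0. *Tube1*, the ε-tubulin of centrioles, had 6 to 16 reads per library and *Tubd1*, the δ-tubulin, 85 to 120.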
